A study of Mus musculus with 24 samples.

Results

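Calorie restriction that held mice at the body weight reached after Roux-en-Y gastric bypass was compared with sham surgery in liver, across every gene that could be tested. The comparison uses 16 of the 24 libraries of the series, 8 from sham-operated mice (Sham) and 8 from mice weight-matched to the bypass group by calorie restriction (WM); members were chosen by the group in the sample titles. The other 8 libraries come from the bypass group (RYGB) and enter the fit as a shared estimate of spread and, at the end, as values beside those of WM. All livers were taken 20 weeks after surgery, and the series title describes the mice as obese. The sources used here do not give strain, sex, age, diet, feeding state or hour of collection, nor say whether the WM mice were operated on. WM therefore differs from Sham in food supply and body weight together, and the 2 cannot be told apart. The labels number the libraries without saying how they correspond to animals, so p-values measure only the spread between these samples.

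The liver stores surplus energy as triglyceride, made from acetyl units by fatty acid synthesis and packed into lipid droplets, and exports it with apolipoproteins. When food is limited it turns to oxidation of fatty acids, ketogenesis and gluconeogenesis, under control of insulin, glucagon, glucocorticoids and the nuclear receptor PPAR alpha. Sterol synthesis is switched on by the factor SREBP2 when cell cholesterol is low, and a large set of liver genes differs between male and female mice because growth hormone reaches the liver in different rhythms. The feeding hour is a strong time cue for the hepatic clock.

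RNA was read from the 3′ end of messenger RNA in single reads of 50 bp, so that each transcript gives about 1 tag and counts were not divided by length. Levels are in CPM, the counts scaled to a common library size after TMM normalization. The library totals ran from 13659647 to 22766612 counts over the 24 libraries, with p = 0.427 between WM and Sham (exact permutation test, two-sided, adjusted p = 0.512). Hepatocyte markers were abundant in all 16 libraries: Alb, serum albumin, ran from 21500 to 73400 CPM and Asgr1, the asialoglycoprotein receptor, from 439 to 1660 CPM. Sham replicate 17 stood apart by exocrine pancreas transcripts, with 68.1 CPM of Cpa1, a carboxypeptidase, against medians of 0 in both groups. WM replicate 25 lay farthest from the other libraries of its group, at a root mean square distance of 0.923 on the log2 scale. Some of the counts below are given without these 2 libraries as well.

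Of 13121 tested genes, 4125 (31.4%) differed between WM and Sham at an adjusted p under 0.05 by edgeR's quasi-likelihood test with Benjamini-Hochberg adjustment over all tested genes, the test behind every gene p-value here. Of these, 2161 (16.5% of tested genes) were higher in WM and 1964 (15.0%) lower. The median log2 fold change over all tested genes was −0.01. Small changes made up most of the calls: 505 called genes differed by less than 1.5-fold and 1729 by 1.5-fold to 2-fold, whereas 263 differed by 4-fold to 8-fold and 88 by 8-fold or more, 21 of them higher in WM and 67 lower. The 2 groups of 8 libraries did not overlap at all in 764 genes (5.82%). With genes ordered by level and cut into 5 equal classes, 47.0% of the highest class were called, 796 higher and 436 lower, and 16.9% of the lowest class, 182 higher and 262 lower. When scaled by library totals alone, the median of all genes moved to −0.34, and the calls split into 1049 higher and 3637 lower.

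**Figure D1:**
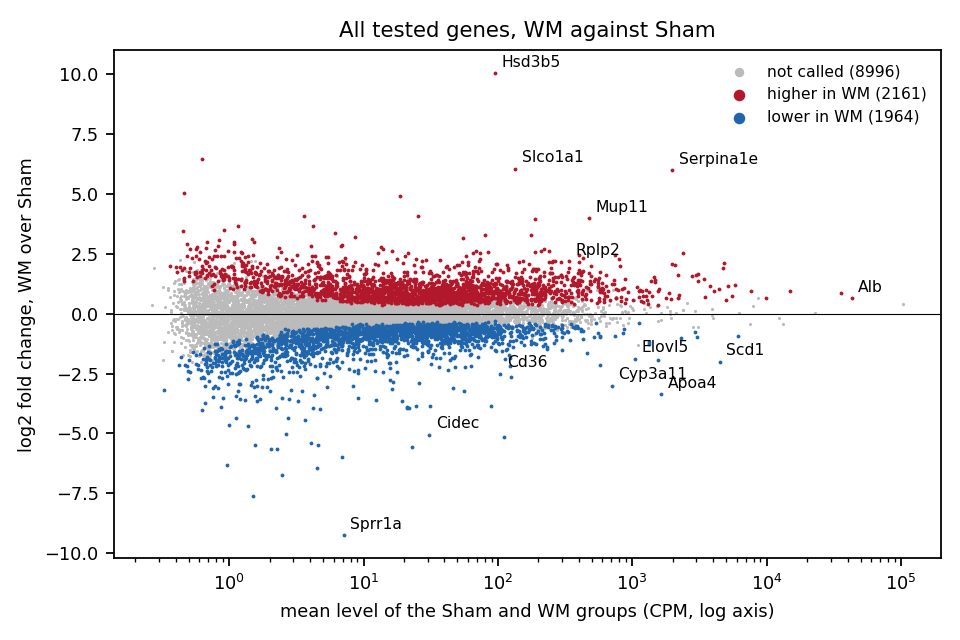
Log2 fold change of WM over Sham for the 13121 tested genes against their mean CPM in the 2 groups (log axis); red points are the 2161 genes called higher, blue points the 1964 called lower, grey points those not called. Calls of both directions spread over the whole range of levels, and the largest folds belong to Hsd3b5 upward and Sprr1a downward.

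Transcript length moved with the direction of change. The slope of a library's gene levels, each centred on its mean over the 24 libraries, on log2 transcript length was 0.144 ± 0.0462 (SD, n = 8) in Sham and −0.0894 ± 0.0736 (SD, n = 8) in WM, with no overlap between the groups (exact permutation test, two-sided, p = 0.000155, the smallest that 8 against 8 can give; adjusted p = 0.00093 over 6 library measures). With 5 equal classes of length, 974 of the shortest genes were higher in WM and 156 lower, and of the longest 110 were higher and 788 lower. After per-library trends on transcript length and GC content were taken out, the same classes gave 535 higher and 300 lower, and 398 higher and 287 lower, and over all genes 2360 were called higher and 1417 lower. Called genes of 2 annotation classes were mostly lower: of 306 genes of the class TEC (transcribed regions that still await experimental proof), 1 was higher and 88 lower, and of 53 sense-intronic genes 2 were higher and 15 lower. Together these classes held 0.134% ± 0.0638 (SD, n = 8) of the counts in Sham and 0.0541% ± 0.0199 (SD, n = 8) in WM (exact permutation test, two-sided, p = 0.00109, adjusted p = 0.00327 over 3 measures chosen after the data were seen). The long nuclear RNA Malat1 ranged from 653 to 4870 CPM in Sham (median 2460) and from 220.0 to 1240 CPM in WM (median 597), a log2 fold change of −1.93 ± 0.39 (SE, adjusted p = 0.000449). Their part in the gene results below was not tested beyond that correction. Its counts stand beside some of the lists, and lists given without them moved too.

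**Figure D2:**
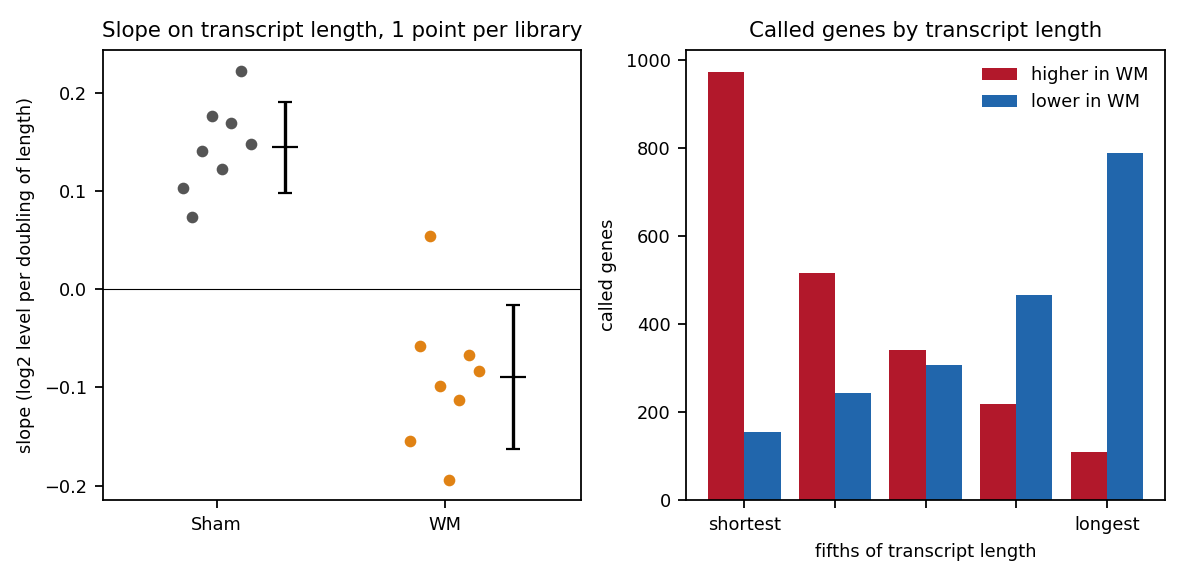
Left, slope of log2 level on log2 transcript length, 1 point per library with the group mean and SD beside it; right, called genes in 5 equal classes of transcript length. All 8 Sham slopes lie above 0 and above the 8 WM slopes, and calls go from mostly higher in the shortest class to mostly lower in the longest.

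Genes were also counted in 54 lists of pathways, transporters and cell type markers, which hold 1233 different genes, 1114 of them tested. The share of members called in each direction stands beside 16.5% and 15.0% over all tested genes, and 95 genes are in more than 1 list. Of the genes named below, those outside the rule given under processing were named because their list had 5 or fewer called members in that direction, and were chosen after their values were seen.

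**Figure D3:**
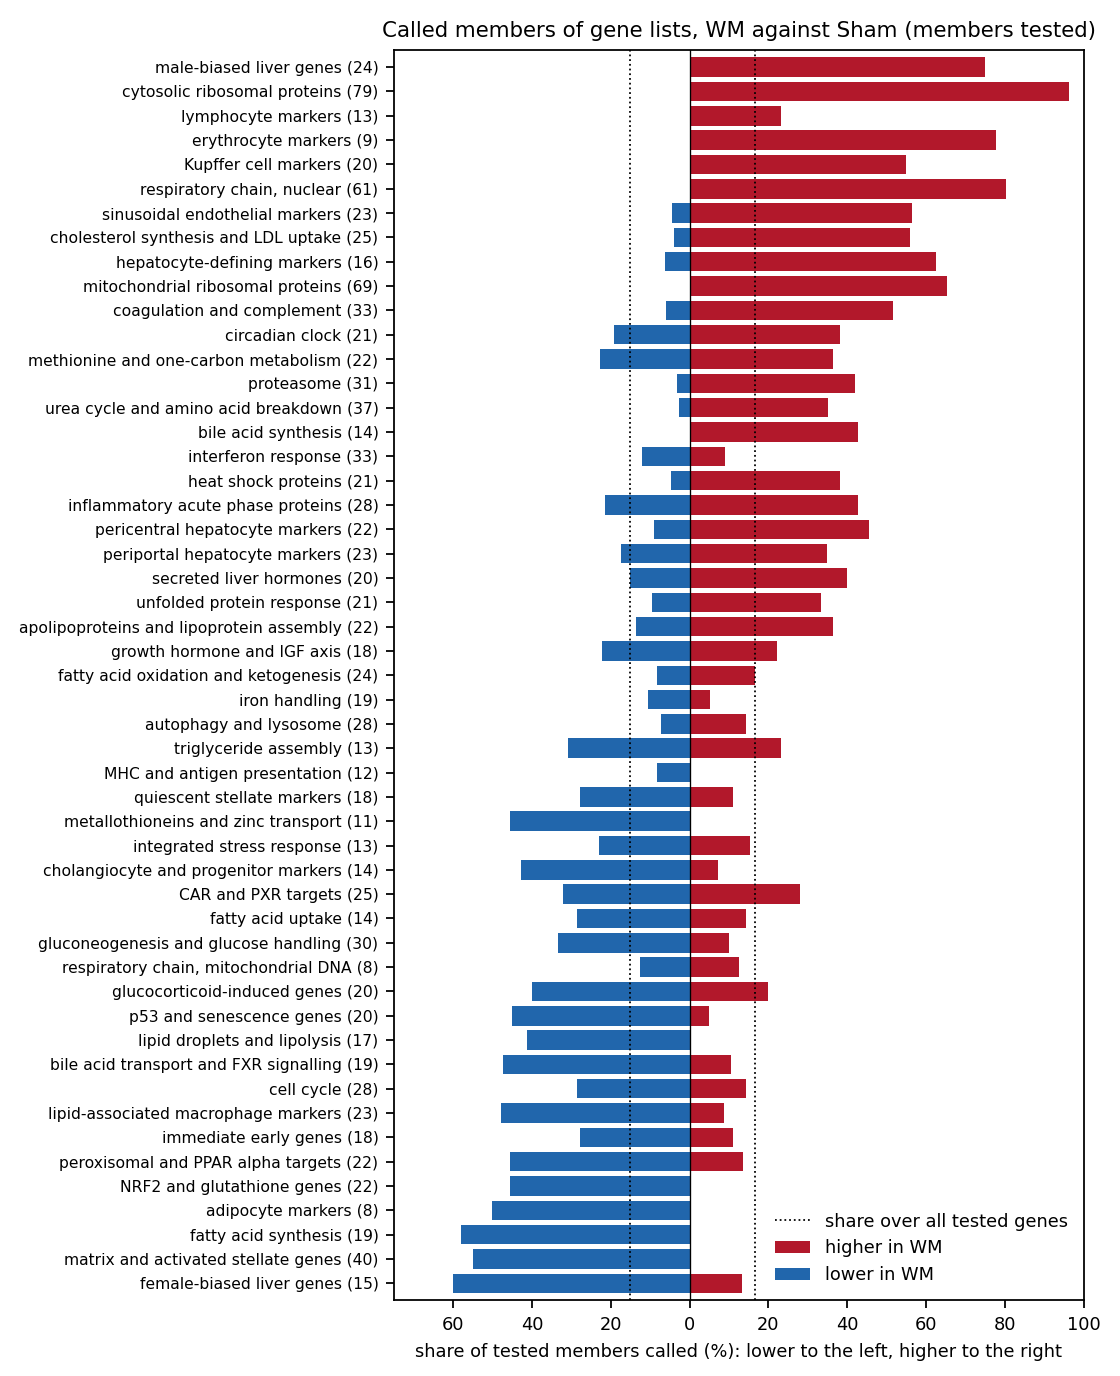
Share of the tested members of each list (lists with at least 8 tested members, number tested in parentheses) called higher in WM, to the right, or lower, to the left, in order of the list's median log2 fold change; dotted lines mark 16.5% and 15.0% over all tested genes. Male-biased genes, ribosomal proteins, lymphocyte, erythrocyte and Kupffer cell markers and nuclear genes of the respiratory chain stand toward the top, and matrix genes, fatty acid synthesis and female-biased genes at the bottom left.

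The broadest rise was in the protein-making machinery. Of 79 cytosolic ribosomal proteins, 76 were higher in WM and none lower, with a median log2 fold change of 1.52. Rps7, of the small subunit, ranged from 43.3 to 108 CPM in Sham (median 50.0) and from 198 to 535 CPM in WM (median 311), a log2 fold change of 2.61 ± 0.27 (SE, adjusted p = 5.41e-08). Rplp2, of the ribosomal stalk, ranged from 85.2 to 203 CPM in Sham (median 110.0) and from 244 to 859 CPM in WM (median 505), 2.19 ± 0.23 on the log2 scale (adjusted p = 5.64e-08). In both genes every WM library lay above every Sham library, as in 42 of the 79. The 3 members that were not called were Rps6 (0.81 ± 0.36, adjusted p = 0.0872), Rpl15 (0.59 ± 0.31, adjusted p = 0.142) and Rpl6 (0.23 ± 0.21, adjusted p = 0.422). The list is one of short transcripts, with a median length of 1059 bases against 3229 over all tested genes, and with length and GC content taken out 71 were called higher, none lower, at a median of 1.26. Processed pseudogenes, many of which are copies of ribosomal protein transcripts, were called higher in 81 of 177 and lower in 6, and reads shared between a gene and its copy could not be separated here.

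Messenger RNAs of ribosomal proteins are known to start with a run of pyrimidines through which their translation is tied to growth signals. In RefSeq promoter windows (build GRCm38.p6), the letters CTTTC, read on the strand of the gene within 15 bases of the start, were found in 17 of 58 ribosomal protein genes with a window (29.3%), and in 429 of 9715 tested genes (4.42%). Of the carriers, 3 with a small p are shown from 15 bases before the start to 14 after it, with these letters in capitals. They show how closely the run sits at the start. Their windows are chr7:141447636-141447665 (plus strand), chr7:45718056-45718085 (plus strand) and chr17:27635230-27635259 (minus strand).
Rplp2: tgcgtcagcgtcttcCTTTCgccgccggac
Rpl18: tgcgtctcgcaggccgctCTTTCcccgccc
Rps10: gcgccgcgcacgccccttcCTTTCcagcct
Mitochondrial ribosomal proteins, which rose too, held the letters in 3 of 60 genes (5.0%), close to the share over all tested genes.

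Mitochondrial protein genes of the nucleus rose, whereas the protein-coding transcripts of mitochondrial DNA did not move together. Of 61 nuclear genes of the respiratory chain, 49 were higher in WM and none lower (median 0.88). Ndufb2, a subunit of complex I, ranged from 82.5 to 183 CPM in Sham (median 110.0) and from 216 to 527 CPM in WM (median 402), a log2 fold change of 1.70 ± 0.21 (SE, adjusted p = 5.88e-07). Atp5k, a subunit of ATP synthase, went from a median of 358 CPM to 1070 CPM (1.43 ± 0.19, adjusted p = 1.54e-06). Of 69 mitochondrial ribosomal proteins, 45 rose and none fell (median 0.66), led by Mrps35 (1.44 ± 0.16, adjusted p = 1.49e-07). With length and GC content taken out, 39 of the respiratory chain genes and 41 of the mitochondrial ribosomal proteins were higher, and 0 and 2 lower. When scaled by library totals, 31 and 25 were higher and 0 and 3 lower. Of the 8 tested protein-coding genes of mitochondrial DNA, mt-Co1, of complex IV, was higher (0.78 ± 0.19, adjusted p = 0.00266, not called when scaled by library totals) and mt-Nd2, of complex I, lower (−0.93 ± 0.31, adjusted p = 0.0205, not called after the length and GC correction). Over all 24 tested genes of mitochondrial DNA, 13 were higher and 1 lower (median 1.13), at a median transcript length of 71 bases. Of these, 10 were higher and 0 lower after the length and GC correction, and 7 and 2 when scaled by library totals. The share of counts from mitochondrial DNA was 9.25% ± 2.49 (SD, n = 8) in Sham and 9.1% ± 2.56 (SD, n = 8) in WM (adjusted p = 0.904, exact permutation test).

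Protein turnover changed in part. Of 31 proteasome genes 13 were higher and 1 lower (median 0.44), with 8 higher after the length and GC correction, 8 higher and 2 lower without Sham replicate 17 and WM replicate 25, and 6 higher and 3 lower when scaled by library totals. Psmb4, of the catalytic core, ranged from 132 to 204 CPM in Sham (median 151) and from 195 to 476 CPM in WM (median 371), a log2 fold change of 1.21 ± 0.16 (SE, adjusted p = 1.39e-06). The member that fell was Psmd11, of the regulatory cap (−0.69 ± 0.14, adjusted p = 0.000595). Of 28 autophagy and lysosome genes, 4 rose and 2 fell, a smaller share than over all genes. This did not hold in other settings. When scaled by library totals 1 rose and 11 fell, and by limma-voom 5 rose and 10 fell. After the length and GC correction 9 rose and 6 fell, where 28.8% of all genes were called. Map1lc3b, the autophagosome marker, rose by 0.89 ± 0.20 (adjusted p = 0.00133) and Lipa, the lysosomal acid lipase that frees stored cholesterol and fatty acids, fell by 1.11 ± 0.16 (adjusted p = 5.1e-06), with Ctsh, Becn1 and Npc2 also higher and Ctsb lower. Of 25 alternatives, Becn1 and Npc2 lost the call in 10 each and Ctsb in 12.

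Genes that make fatty acids fell. Of 19 members of fatty acid synthesis, 11 were lower in WM and none higher, with a median of −1.16. Scd1, the desaturase that makes oleate, ranged from 5370 to 9280 CPM in Sham (median 7240) and from 521 to 4440 CPM in WM (median 1410), a log2 fold change of −2.01 ± 0.32 (SE, adjusted p = 2.63e-05). Every WM library lay below every Sham library, as it did for Elovl5, an elongase of polyunsaturated fatty acids, which ranged from 1290 to 2080 CPM in Sham (median 1560) and from 161 to 717 CPM in WM (median 443, −1.89 ± 0.26, adjusted p = 2.66e-06). Fasn, fatty acid synthase, fell by 1.63 ± 0.28 (adjusted p = 6.29e-05), Elovl6 by 1.86 ± 0.27 (adjusted p = 8.36e-06) and Me1, malic enzyme, which supplies NADPH, by 1.51 ± 0.21 (adjusted p = 3.48e-06). Srebf1, whose product SREBP1c drives these enzymes, was at a median of 41.5 CPM in Sham and 34.9 CPM in WM (−0.22 ± 0.21, adjusted p = 0.443), and the ranges overlapped.

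Proteins of lipid droplets were lower as well, whereas genes of fatty acid uptake went both ways. Of 17 genes of droplets and lipolysis, 7 were lower and none higher, and 11 lower when scaled by library totals. Cidec, which fuses droplets into large ones, ranged from 26.3 to 103 CPM in Sham (median 60.3) and from 0.448 to 3.61 CPM in WM (median 1.79), a log2 fold change of −5.06 ± 0.52 (SE, adjusted p = 4.34e-08). Cidea, its relative, went from a median of 32.0 CPM to 0.903 CPM (−5.55 ± 0.62, adjusted p = 1.63e-07) and Plin4, a droplet coat protein, from 34.0 CPM to 2.73 CPM (−3.93 ± 0.37, adjusted p = 1.39e-08). All 3 had groups that did not overlap. Cd36, a fatty acid receptor, ranged from 145 to 222 CPM in Sham (median 173) and from 14.6 to 62.0 CPM in WM (median 27.4, −2.52 ± 0.22, adjusted p = 4.66e-09). Of 14 uptake genes 4 were lower, Cd36, Vldlr, Lpl and Slc27a4, and 2 higher, the binding protein Fabp1 (0.57 ± 0.19, adjusted p = 0.0223) and the acyl-CoA synthetase Slc27a5 (0.50 ± 0.19, adjusted p = 0.0408), neither of them called when scaled by library totals or after the length and GC correction. Slc27a5 lost the call in 13 of 25 alternatives and Slc27a4 in 9. The summed level of the uptake list was higher in WM, at a median of 8630 CPM against 6020 CPM in Sham. That sum leans on Fabp1, which alone ran from 2820 to 5230 CPM in Sham and from 3890 to 7200 CPM in WM. The median log2 fold change of the list's members was −0.30.

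**Figure D4:**
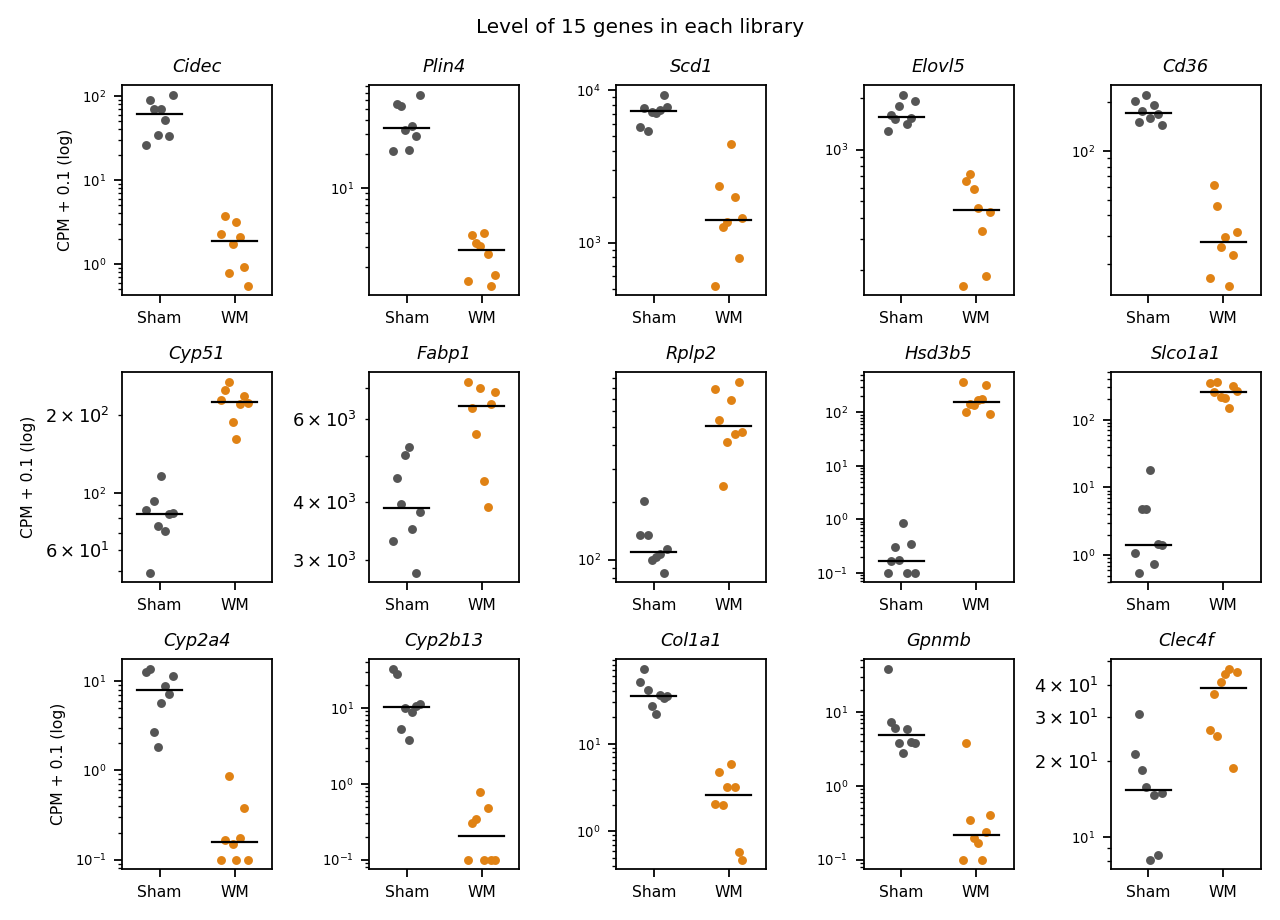
Level of 15 genes in each of the 8 Sham and 8 WM libraries (CPM plus 0.1, log axis); each point is a library and each line the group's median. Cidec, Plin4, Scd1, Elovl5, Cd36, Cyp51, Hsd3b5, Slco1a1, Rplp2 and Col1a1 show no overlap between groups, and Gpnmb and Clec4f overlap.

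The steps of triglyceride assembly split. Of 13 genes, 3 were higher and 4 lower (median −0.04). Dgat2, which adds the last acyl chain, ranged from 213 to 296 CPM in Sham and from 343 to 639 CPM in WM (median 391), a rise of 0.71 ± 0.15 (adjusted p = 0.00064) that was not called when scaled by library totals. Mogat1, an acyltransferase linked to steatosis, fell from a median of 8.32 CPM to 1.01 CPM (−3.05 ± 0.37, adjusted p = 5.88e-07), and Gpat3 from 14.6 CPM to 2.45 CPM (−2.40 ± 0.33, adjusted p = 3.7e-06). The other called members were Gpat4 (0.74 ± 0.25, adjusted p = 0.026) and Agpat2 (0.58 ± 0.22, adjusted p = 0.0396), higher, and Gpam (−0.76 ± 0.22, adjusted p = 0.00971) and Lpin2 (−0.72 ± 0.21, adjusted p = 0.0103), lower. Of 25 alternatives, Agpat2 lost the call in 12 and Gpat4 in 5. Without Sham replicate 17 and WM replicate 25, 1 member was higher and 4 lower. After the length and GC correction, 2 were higher and 2 lower.

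Fatty acid oxidation did not move as a block. Of 24 genes of oxidation and ketogenesis, 4 were higher and 2 lower (25.0% called, against 31.4% over all genes; median 0.03), and when scaled by library totals 2 higher and 6 lower (median −0.28). Cpt1a, which admits fatty acids to mitochondria, had medians of 212 and 190.0 CPM (−0.11 ± 0.17, adjusted p = 0.669). Those that rose were Eci2 (0.83 ± 0.13, adjusted p = 1.51e-05), Etfb (1.05 ± 0.18, adjusted p = 6.66e-05), Acaa2 (0.76 ± 0.18, adjusted p = 0.00154) and Cpt2 (0.53 ± 0.15, adjusted p = 0.0081), and those that fell Crat, carnitine acetyltransferase (−1.49 ± 0.21, adjusted p = 6.38e-06), and Etfdh (−0.41 ± 0.16, adjusted p = 0.05 as rounded), which lost the call in 15 of 25 alternatives.

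Targets of PPAR alpha, the receptor that answers to fatty acids in fasting, were lower more often than higher. Of 22 genes 10 fell and 3 rose, with a median of −0.78. Pdk4, a kinase that shuts glucose carbon out of mitochondria, ranged from 2.0 to 4.23 CPM in Sham (median 3.44) and from 0 to 0.83 CPM in WM (median 0.311, −3.06 ± 0.53, adjusted p = 7.61e-05). Fgf21, a fasting hormone, went from a median of 5.59 CPM to 0.915 CPM (−2.45 ± 0.41, adjusted p = 4.73e-05), and Acot2 from 33.3 to 10.3 CPM (−1.78 ± 0.31, adjusted p = 6.13e-05). Cyp4a14, an omega-hydroxylase, ranged from 620.0 to 1210 CPM in Sham (median 755) and over the wider span of 99.2 to 1950 CPM in WM (median 643, 0.02 ± 0.35, adjusted p = 0.973). The 3 that rose were Acot1 (1.32 ± 0.28, adjusted p = 0.000626), Acot3 (1.32 ± 0.50, adjusted p = 0.0444) and Acaa1a (0.56 ± 0.20, adjusted p = 0.0333). Without Sham replicate 17 and WM replicate 25 Acot1 remained the one higher of the list, with 12 lower. Of 25 alternatives, Acot3 lost the call in 13 and Acaa1a in 8.

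Sterol synthesis went the other way from fatty acid synthesis. Of 25 genes of cholesterol synthesis and LDL uptake, 14 were higher in WM and 1 lower, with a median of 0.76. Cyp51, the lanosterol demethylase, ranged from 49.0 to 116 CPM in Sham (median 83.2) and from 162 to 269 CPM in WM (median 226, 1.44 ± 0.18, adjusted p = 7.49e-07). Ebp, a sterol isomerase, went from a median of 210.0 CPM to 511 CPM (1.32 ± 0.16, adjusted p = 5.92e-07) and Tm7sf2, a sterol reductase, from 9.86 to 48.2 CPM (2.23 ± 0.29, adjusted p = 1.39e-06), all 3 with no overlap. Hmgcs1, an early enzyme of the pathway, was the member that fell, from a median of 268 CPM to 139 CPM (−0.85 ± 0.27, adjusted p = 0.0158), a call that was lost after the length and GC correction. When scaled by library totals 10 of the list were higher and 4 lower.

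Apolipoproteins split by gene. Of 22 genes of apolipoproteins and lipoprotein assembly 8 were higher and 3 lower at a median of 0.18. The median turned to −0.17 when scaled by library totals (4 higher, 4 lower), to −0.03 after the length and GC correction (5 higher, 2 lower) and to −0.08 without Sham replicate 17 and WM replicate 25 (4 higher, 4 lower). Apoa4, carried on triglyceride-rich particles, ranged from 1600 to 4800 CPM in Sham (median 2970) and from 149 to 516 CPM in WM (median 225), a log2 fold change of −3.36 ± 0.30 (SE, adjusted p = 5.61e-09). Apob, the structural protein of VLDL, fell by 1.28 ± 0.23 (adjusted p = 9.39e-05) and was not called after the length and GC correction, its transcript being among the longest in liver. Apoc2 was the other lower member (−0.80 ± 0.31, adjusted p = 0.047), a call lost in 10 of 25 alternatives. Apoc1 rose from a median of 3480 CPM to 8420 CPM (1.22 ± 0.17, adjusted p = 6.26e-06, no overlap) and Apom, which carries sphingosine phosphate on HDL, from 77.9 to 252 CPM (1.86 ± 0.28, adjusted p = 1.36e-05). Apoa1, the main HDL protein, rose by 0.93 ± 0.33 (adjusted p = 0.0339). It lost the call in 13 of 25 alternatives, among them the fit without Sham replicate 17 and WM replicate 25. Apoa2 rose by 0.65 ± 0.22 (adjusted p = 0.0239), and its direction turned after the length and GC correction.

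Bile acid genes divided between synthesis and transport. Of 14 synthesis genes 6 were higher and none lower, and when scaled by library totals 2 were higher and 1 lower (median 0.42, and 0.10 so scaled). Among the 6 were Cyp7b1 of the alternative pathway, which ranged from 13.1 to 41.3 CPM in Sham (median 20.7) and from 65.0 to 301 CPM in WM (median 133, 2.59 ± 0.30, adjusted p = 2.58e-07), and Cyp2c70, which makes muricholic acids (0.95 ± 0.19, adjusted p = 0.000334). Cyp7a1, which catalyses the first and limiting step of the main pathway, ranged from 6.69 to 116 CPM in Sham (median 49.3) and from 14.6 to 74.6 CPM in WM (median 50.3, −0.24 ± 0.43, adjusted p = 0.704). Cyp8b1, the hydroxylase needed for cholic acid, ranged from 184 to 657 CPM in Sham (median 390.0) and from 91.0 to 1130 CPM in WM (median 180.0, −0.54 ± 0.42, adjusted p = 0.348); without Sham replicate 17 and WM replicate 25 it was called lower. Of 19 genes of transport and FXR signalling, 9 were lower and 2 higher, and after the length and GC correction 6 were lower and 3 higher (median −0.51, and −0.15 so corrected). The higher ones take up bile acids and organic anions from blood: Slc10a1 (1.56 ± 0.18, adjusted p = 4.01e-07) and Slco1a1, described next. Slc10a2, the sodium-dependent transporter of the ileum and bile ducts, ranged from 55.6 to 103 CPM in Sham (median 63.4) and from 9.23 to 36.0 CPM in WM (median 19.3, −1.86 ± 0.23, adjusted p = 8.41e-07).

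Genes that differ between male and female mouse liver moved in opposite directions. Of 24 male-biased genes 18 were higher in WM and none lower, with a median of 1.91, and of 15 female-biased genes 9 were lower and 2 higher, with a median of −1.70. Of 7 tested genes of chromosome Y 1 was higher and 1 lower, with a median of 0.01. Their mean levels over Sham and WM ran from 1.76 to 139 CPM. The sex of the mice is not given, and whether it differs between the groups was not tested. Hsd3b5 (ENSMUSG00000038092, chromosome 3, 98618634 to 98630252 in GENCODE M21 on GRCm38), a male-specific steroid dehydrogenase, ranged from 0 to 0.742 CPM in Sham (median 0.0693) and from 94.3 to 373 CPM in WM (median 159), a log2 fold change of 10.05 ± 0.75 (SE, adjusted p = 2.2e-10). Slco1a1, an organic anion uptake transporter, ranged from 0.45 to 17.9 CPM in Sham (median 1.32) and from 151 to 363 CPM in WM (median 260.0, 6.04 ± 0.58, adjusted p = 1.98e-08). Serpina1e, a serine protease inhibitor of the alpha-1-antitrypsin family, ranged from 16.7 to 166 CPM in Sham (median 30.3) and from 886 to 11000 CPM in WM (median 2510, 5.99 ± 0.63, adjusted p = 6.23e-08). All 3 had groups that did not overlap. Mup11, a urinary protein of a family of near-identical genes whose reads may be shared, rose by 3.99 ± 0.73 (adjusted p = 0.000124), and Nudt7, a peroxisomal CoA hydrolase, by 2.17 ± 0.21 (adjusted p = 3.01e-08).

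On the female-biased side, Cyp2b13 ranged from 3.71 to 32.7 CPM in Sham (median 10.2) and from 0 to 0.683 CPM in WM (median 0.102), a log2 fold change of −6.00 ± 0.65 (SE, adjusted p = 5.88e-07). Cyp2a4, a steroid hydroxylase, ranged from 1.71 to 13.6 CPM in Sham (median 7.88) and from 0 to 0.766 CPM in WM (median 0.0585, −5.40 ± 0.79, adjusted p = 8.31e-06). Gstm3, a glutathione transferase, went from a median of 195 CPM to 7.46 CPM (−3.86 ± 0.47, adjusted p = 5.51e-07). The 2 that rose were Cyp2a5 (1.43 ± 0.41, adjusted p = 0.00924), close in sequence to Cyp2a4, and Acot3, given above. The growth hormone axis itself moved both ways, with 4 of 18 higher and 4 lower (median 0.13, and −0.18 when scaled by library totals). Igfbp2 rose from a median of 42.0 CPM to 165 CPM (2.04 ± 0.25, adjusted p = 5.24e-07, no overlap), Igfals by 1.39 ± 0.25 (adjusted p = 9.41e-05) and Igf1 by 0.55 ± 0.17 (adjusted p = 0.0141). Igfbp1, the insulin-repressed binding protein, fell from a median of 66.3 CPM to 20.3 CPM (−1.77 ± 0.36, adjusted p = 0.000398, no overlap) and Igfbp3 by 1.97 ± 0.33 (adjusted p = 5.16e-05). Socs3 was called higher (1.37 ± 0.50, adjusted p = 0.0361) on similar medians of 9.56 and 9.33 CPM, with 3 WM libraries, at 35.1, 84.7 and 86.9 CPM, above the highest Sham value of 24.2 CPM, and it lost the call in 12 of 25 alternatives. Stat5a and Igf1r were lower.

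Outside the lists, the rule for the largest folds took Clec2h, a C-type lectin, which ranged from 0.498 to 2.60 CPM in Sham (median 1.02) and from 19.0 to 66.1 CPM in WM (median 33.1, 4.91 ± 0.36, adjusted p = 1.34e-10), and, downward, Sprr1a, a cornified envelope protein, which ranged from 4.38 to 21.5 CPM in Sham (median 14.1) and from 0 to 0.0756 CPM in WM (adjusted p = 1.26e-10). Ly6d, a surface protein, ranged from 94.1 to 309 CPM in Sham (median 223) and from 0.899 to 16.5 CPM in WM (median 4.53, −5.16 ± 0.53, adjusted p = 4.6e-08). Ephb2, an ephrin receptor, ranged from 2.20 to 17.4 CPM in Sham (median 8.85) and from 0 to 0.696 CPM in WM (median 0.0202, −5.47 ± 0.70, adjusted p = 1.17e-06). The groups overlapped in none of these 4 genes.

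Secreted hormones of the liver rose in 8 of 20 and fell in 3 (median 0.23). The counts were 3 and 4 when scaled by library totals (median −0.10) and 4 and 3 after the length and GC correction (median 0.06). Enho, which encodes adropin, ranged from 1.55 to 4.06 CPM in Sham (median 2.88) and from 21.6 to 95.3 CPM in WM (median 40.7), a log2 fold change of 4.08 ± 0.34 (SE, adjusted p = 1.91e-09). Rbp4, the retinol carrier, rose from a median of 2790 CPM to 4910 CPM (0.93 ± 0.14, adjusted p = 1.29e-05) and Ahsg, fetuin-A, from 3260 to 5770 CPM (1.14 ± 0.23, adjusted p = 0.000305). Beside Fgf21, the members that fell were Gdf15, a stress hormone, from a median of 60.7 CPM to 12.7 CPM (−1.86 ± 0.34, adjusted p = 0.000116), and Fst, follistatin, from 4.95 to 1.16 CPM (−2.02 ± 0.45, adjusted p = 0.00114).

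Other plasma proteins moved upward more than downward. Of 33 genes of coagulation and complement, 17 were higher and 2 lower (median 0.54), but 7 and 3 when scaled by library totals (median 0.21), and 11 and 2 without Sham replicate 17 and WM replicate 25. C8b, of the membrane attack complex, ranged from 31.8 to 76.5 CPM in Sham (median 53.4) and from 178 to 574 CPM in WM (median 278, 2.59 ± 0.26, adjusted p = 3.32e-08), and F2, prothrombin, rose from a median of 627 CPM to 1500 CPM (1.10 ± 0.19, adjusted p = 5.5e-05). The 2 that fell were Pros1 (−0.99 ± 0.24, adjusted p = 0.00255) and C9 (−0.52 ± 0.19, adjusted p = 0.0368), the latter a call lost in 10 of 25 alternatives. Of 28 acute phase proteins 12 were higher and 6 lower, and when scaled by library totals 3 were higher and 7 lower. Without Sham replicate 17 and WM replicate 25, 8 were higher and 6 lower, as they were after the length and GC correction. Serpina3k rose by 1.92 ± 0.24 (adjusted p = 7.24e-07), whereas Lcn2, lipocalin, fell from a median of 28.1 CPM to 2.73 CPM (−3.65 ± 0.56, adjusted p = 1.64e-05) and Orm3, an orosomucoid, from 20.2 to 0.965 CPM (−3.61 ± 0.44, adjusted p = 5.88e-07). The hepatocyte-defining markers rose in 10 of 16 (6 when scaled by library totals), Alb by 0.64 ± 0.19 (adjusted p = 0.0104), a call lost when scaled by library totals, and fell in 1, Apob. In bulk tissue, fewer cells of a type and less RNA per cell cannot be told apart.

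Glucose genes were lower more often than higher: of 30, 10 fell and 3 rose (median −0.30). G6pc, the catalytic unit of glucose-6-phosphatase that releases glucose to blood, ranged from 172 to 317 CPM in Sham (median 211) and from 39.2 to 146 CPM in WM (median 82.3, −1.32 ± 0.27, adjusted p = 0.00054). Ppargc1a, a coactivator of gluconeogenesis, fell from a median of 14.2 CPM to 6.80 CPM (−1.01 ± 0.21, adjusted p = 0.000422), and neither gene overlapped between groups. Pck1, an enzyme of gluconeogenesis, ranged from 354 to 1030 CPM in Sham (median 590.0) and from 357 to 898 CPM in WM (median 550.0, −0.08 ± 0.26, adjusted p = 0.842). The 3 that rose were Gys2, glycogen synthase (1.14 ± 0.23, adjusted p = 0.000474), Gcgr, the glucagon receptor (0.64 ± 0.17, adjusted p = 0.00562), and Slc37a4, the glucose-6-phosphate transporter (0.65 ± 0.24, adjusted p = 0.0403); when scaled by library totals Gys2 was the one still called higher. Slc37a4 lost the call in 13 of 25 alternatives. Of 20 glucocorticoid-induced genes, 8 were lower and 4 higher, and 10 and 2 when scaled by library totals. Tsc22d3, a direct target of the receptor, rose from a median of 29.6 CPM to 96.1 CPM (1.57 ± 0.25, adjusted p = 2e-05), with Hsd11b1, which regenerates active hormone (0.94 ± 0.20, adjusted p = 0.000632), Sgk1 and Per1. Fkbp5, a further target, was at medians of 10.0 and 17.8 CPM (0.72 ± 0.30, adjusted p = 0.0619). Mt2, metallothionein 2, ranged from 18.5 to 228 CPM in Sham (median 88.9) and from 3.18 to 29.9 CPM in WM (median 6.52, −3.21 ± 0.61, adjusted p = 0.000199).

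Some clock genes rose and others fell. Of 21 genes 8 were higher, among them the repressors Ciart, Bhlhe41, Per1 and Per2 and the output factor Dbp, and 4 lower, the activators Arntl, Clock and Npas2 and the receptor Rora; when scaled by library totals 4 were higher and 5 lower. Other repressors were not called: Per3 stood at 0.60 (adjusted p = 0.356), Cry1 at 0.51 (adjusted p = 0.223), Cry2 at 0.14 (adjusted p = 0.731), Nr1d1 at 0.11 (adjusted p = 0.892) and Nr1d2 at 0.56 (adjusted p = 0.0948) on the log2 scale. Bhlhe41 ranged from 0.108 to 3.93 CPM in Sham (median 1.52) and from 5.01 to 19.0 CPM in WM (median 12.4, 2.84 ± 0.52, adjusted p = 0.000142). Dbp ranged from 7.12 to 59.9 CPM in Sham (median 27.8) and from 74.6 to 146 CPM in WM (median 112, 1.89 ± 0.53, adjusted p = 0.00728). Neither overlapped between groups. Clock fell from a median of 54.7 CPM to 21.8 CPM (−1.32 ± 0.23, adjusted p = 9.05e-05, no overlap) and Arntl, its partner, from 4.75 to 1.11 CPM (−2.03 ± 0.50, adjusted p = 0.00265). Per1 rose by 1.21 ± 0.36 (adjusted p = 0.0104) and Per2 by 1.12 ± 0.36 (adjusted p = 0.0172), both calls lost when scaled by library totals. The hour at which each liver was taken is not in the labels, so a shift in phase and a change in level cannot be told apart.

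The E-box, the site of the Clock and Arntl pair, was searched as CACGTG on both strands in promoter windows from 250 bases before to 50 after the start. It was found in 6 of 18 clock genes with a window (33.3%), Per1, Cry1, Tef, Bhlhe41, Ciart and Tspan4, and in 11.9% of the 9715 tested genes with one. All but Cry1 were called higher in WM. Over all tested genes with a window, the E-box was in 11.8% of those called higher and 11.3% of those called lower. Other lists held it in larger shares than the clock list, autophagy and lysosome in 9 of 20 genes (45.0%) and p53 and senescence in 7 of 17 (41.2%). Stretches around the E-box, in capitals, are shown for 3 repressors to show how many sites each holds; they lie at chr3:95882257-95882354 (minus strand), chr6:145865558-145865583 (minus strand) and chr11:69098773-69098798 (plus strand), in GRCm38.p6.
Ciart: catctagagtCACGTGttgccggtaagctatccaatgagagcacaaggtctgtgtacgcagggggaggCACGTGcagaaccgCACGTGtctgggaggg
Bhlhe41: gtacgttccgCACGTGagctgggtgc
Per1: cacccaagtcCACGTGcagggatgtg
Ciart, with 3 E-boxes, ranged from 0 to 4.0 CPM in Sham (median 0.85) and from 2.02 to 12.1 CPM in WM (median 6.05, 2.39 ± 0.69, adjusted p = 0.00853), and Arntl and Clock hold none in their windows.

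**Figure D5:**
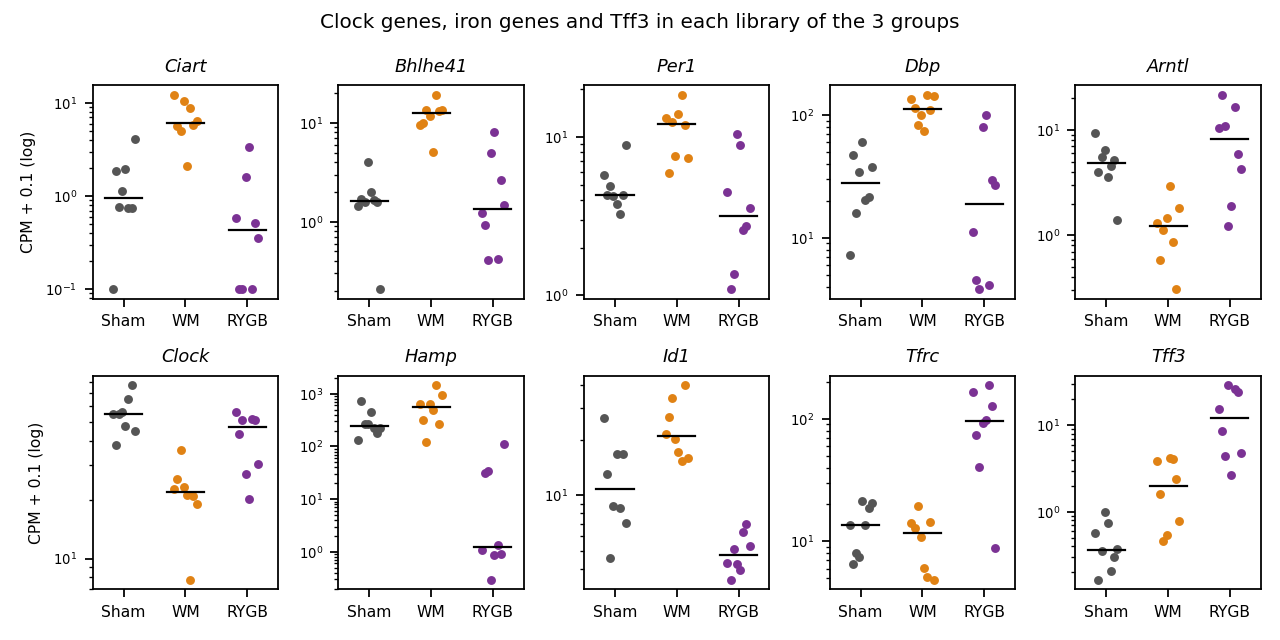
Level of 10 genes in each library of Sham, WM and RYGB (CPM plus 0.1, log axis); each point is a library and each line the group's median. Ciart, Bhlhe41, Per1 and Dbp have their highest median in WM and Arntl and Clock their lowest. Hamp and Id1 are lower in RYGB than in WM without overlap. Tfrc and Tff3 have higher medians in RYGB, and their ranges overlap with those of WM.

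Stress programmes divided. Of 21 heat shock genes 8 were higher and 1 lower (median 0.33, and −0.01 when scaled by library totals). Hspa1b, an inducible chaperone, ranged from 1.42 to 33.1 CPM in Sham (median 2.78) and from 15.8 to 65.9 CPM in WM (median 32.1, 2.55 ± 0.53, adjusted p = 0.000536), and its co-chaperone Dnajb1 rose by 1.30 ± 0.24 (adjusted p = 0.000125). The member that fell was Hspa4l (−1.04 ± 0.25, adjusted p = 0.0021), a call lost after the length and GC correction. Of 21 genes of the unfolded protein response 7 rose and 2 fell (median 0.22, and −0.15 when scaled by library totals), with Xbp1, its main factor, up from a median of 81.9 CPM to 186 CPM (1.05 ± 0.18, adjusted p = 5.5e-05) and the sensor Atf6 (−0.72 ± 0.18, adjusted p = 0.00275) and Pdia3 (−0.61 ± 0.17, adjusted p = 0.00847) down. Of 13 genes of the integrated stress response 2 were higher, Ddit3 (0.99 ± 0.27, adjusted p = 0.00558) and Stbd1 (1.07 ± 0.22, adjusted p = 0.000515), and 3 lower, Atf3, Vldlr and Cebpg.

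Genes of glutathione metabolism and of p53 signalling were mostly lower when called, and drug-metabolising genes went both ways. Of 22 NRF2 and glutathione genes 10 were lower and none higher, with a median of −0.83. After the length and GC correction 12 were lower and 2 higher. Gclc, the rate-limiting enzyme of glutathione synthesis, ranged from 380.0 to 1350 CPM in Sham (median 979) and from 136 to 255 CPM in WM (median 231, −2.15 ± 0.20, adjusted p = 1.7e-08, no overlap). Genes induced through CAR and PXR, receptors for drugs, were higher in 7 of 25 and lower in 8, and in 5 and 12 when scaled by library totals. Cyp3a11, the main drug-metabolising P450, ranged from 931 to 1570 CPM in Sham (median 1280) and from 47.7 to 293 CPM in WM (median 143, −3.01 ± 0.26, adjusted p = 2.63e-09). Cyp2b10 ranged from 1.11 to 13.7 CPM in Sham and from 0 to 0.149 CPM in WM (adjusted p = 5.88e-07), whereas Cyp2c37 rose by 1.24 ± 0.21 (adjusted p = 4.83e-05). Of 20 p53 and senescence genes 9 fell and 1 rose. Cdkn1a, which encodes p21, ranged from 11.1 to 79.1 CPM in Sham (median 35.9) and from 0.81 to 6.05 CPM in WM (median 2.02, −3.94 ± 0.46, adjusted p = 3.32e-07), and the member that rose was Cdkn2a (3.10 ± 0.64, adjusted p = 0.000536), at medians of 0.273 and 1.25 CPM.

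Proliferation and early response genes were lower in part. Of 28 cell cycle genes 8 fell and 4 rose (median −0.51), and 14 and 2 when scaled by library totals. Ccnd1, cyclin D1, went from a median of 133 CPM to 56.1 CPM (−1.54 ± 0.21, adjusted p = 2.07e-06) and the mitotic activator Cdc20 from 5.50 to 0.89 CPM (−2.42 ± 0.47, adjusted p = 0.000285), whereas Tk1, thymidine kinase, rose from 7.57 to 29.6 CPM (2.13 ± 0.22, adjusted p = 4.37e-08), with Cdk2, Cdk4 and Ccne1. Ccne1 lost the call in 10 of 25 alternatives. Of 18 immediate early genes 5 fell and 2 rose, and 10 and 0 when scaled by library totals. Jun ranged from 36.1 to 64.7 CPM in Sham (median 49.7) and from 9.26 to 17.8 CPM in WM (median 14.9, −1.81 ± 0.19, adjusted p = 4.59e-08), with Btg2, Klf6, Atf3 and Jund also lower and Klf2 and Socs3 higher. Of 11 genes of metallothioneins and zinc transport 5 were lower and none higher, Mt2, Mt1, Slc30a10, Slc39a5 and Slc39a4.

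Amino acid and methyl metabolism rose in part. Of 37 genes of amino acid breakdown and urea formation 13 were higher and 1 lower (median 0.43), 5 and 4 when scaled by library totals, and 9 and 2 without Sham replicate 17 and WM replicate 25. Ass1, of the urea cycle, rose by 1.05 ± 0.20 (adjusted p = 0.000243). Gldc, which cleaves glycine, was the one that fell (−1.05 ± 0.25, adjusted p = 0.00162). Of 22 genes of methionine and one-carbon metabolism 8 were higher and 5 lower. Gnmt, which uses S-adenosylmethionine to methylate glycine, ranged from 447 to 1140 CPM in Sham (median 733) and from 967 to 6910 CPM in WM (median 2890, 2.09 ± 0.33, adjusted p = 1.98e-05), and Nnmt, which methylates nicotinamide, rose by 1.76 ± 0.21 (adjusted p = 5.14e-07). Among those that fell were Csad, the taurine enzyme (−1.54 ± 0.31, adjusted p = 0.000385), Bhmt, Mtr and Mthfd1l, of which Bhmt and Mtr remethylate homocysteine to methionine.

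Markers of resident macrophages rose while those of lipid-associated macrophages fell. Of 20 Kupffer cell markers 11 were higher and none lower, with a median of 1.14; the summed level ran from 373 to 856 CPM in Sham and from 786 to 1400 CPM in WM. Clec4f, restricted to Kupffer cells, ranged from 8.01 to 30.7 CPM in Sham (median 15.2) and from 18.6 to 46.4 CPM in WM (median 39.0, 1.11 ± 0.25, adjusted p = 0.00139), Timd4, of the long-lived embryonic population, went from a median of 0.857 CPM to 4.40 CPM (2.22 ± 0.47, adjusted p = 0.000584) and Fcna, ficolin A, from 5.88 to 31.7 CPM (2.40 ± 0.26, adjusted p = 1.2e-07). When scaled by library totals 6 were called higher. Of 23 lipid-associated macrophage markers 11 were lower and 2 higher, Tyrobp and Lyz2, which all macrophages express. Lyz2 lost the call in 10 of 25 alternatives. Gpnmb ranged from 2.67 to 38.3 CPM in Sham (median 4.80) and from 0 to 3.68 CPM in WM (median 0.118, −3.97 ± 0.75, adjusted p = 0.000197), and Anxa2 and Lgals1, which other cells make too, fell by 3.10 ± 0.31 (adjusted p = 3.32e-08) and 2.17 ± 0.30 (adjusted p = 2.95e-06). Trem2, the defining receptor, was too low to be tested, with medians of 0.749 CPM in Sham and 0.235 CPM in WM.

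Matrix genes fell. Of 40 genes of extracellular matrix and activated stellate cells 22 were lower in WM and none higher, with a median of −1.28. Col1a1, the main chain of fibrillar collagen, ranged from 21.7 to 72.1 CPM in Sham (median 35.3) and from 0.373 to 5.78 CPM in WM (median 2.52), a log2 fold change of −3.88 ± 0.41 (SE, adjusted p = 5.64e-08). Col1a2 went from a median of 41.1 CPM to 5.42 CPM (−2.89 ± 0.35, adjusted p = 5.28e-07) and Lamc1, a laminin chain, from 13.1 to 4.73 CPM (−1.42 ± 0.18, adjusted p = 1.38e-06), all 3 with no overlap. These are long transcripts, with a median length of 5214 bases, and after the length and GC correction 22 were again lower and none higher, at a median of −1.02. Of 18 quiescent stellate markers 5 fell and 2 rose, and 3 and 1 after the length and GC correction: Nt5e, Rgs5, Pdgfrb and Lrat were lower and Cxcl12 and Angptl6 higher, calls lost in 6 and 15 of 25 alternatives, and Dcn, decorin, fell by 0.59 ± 0.15 (adjusted p = 0.00411) with a direction that turned after the length and GC correction. The summed level of the quiescent stellate markers ran from 537 to 924 CPM in Sham and from 577 to 663 CPM in WM, and that of the matrix list from 1380 to 2610 CPM and from 1070 to 1980 CPM, so that both sums overlapped.

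Endothelial, blood and bile duct markers were counted in the same way. Of 23 sinusoidal endothelial markers 13 rose (7 when scaled by library totals) and 1, Plvap, a marker of fenestral diaphragms, fell (−1.15 ± 0.32, adjusted p = 0.00665). Clec4g ranged from 6.05 to 26.2 CPM in Sham (median 8.0) and from 15.6 to 66.2 CPM in WM (median 41.7, 1.95 ± 0.32, adjusted p = 4.34e-05), and Stab2, a scavenger receptor, rose by 0.86 ± 0.21 (adjusted p = 0.0024), a call lost when scaled by library totals. Of 9 erythrocyte markers 7 rose (4 when scaled by library totals, and 5 after the length and GC correction or without Sham replicate 17 and WM replicate 25), with a summed level of 826 to 2500 CPM in Sham and 1530 to 10100 CPM in WM; Hbb-bs, beta-globin, rose by 1.61 ± 0.28 (adjusted p = 8.6e-05). Of 13 tested lymphocyte markers 3 were higher, Cd3d, Trbc2 and Igkc, the last a single immunoglobulin chain at 207 CPM in 1 WM library. Of 14 cholangiocyte and progenitor markers 6 fell and 1 rose: Spp1, osteopontin, which macrophages make as well, fell from a median of 34.6 CPM to 11.1 CPM (−1.91 ± 0.29, adjusted p = 1.14e-05) and Tff3, a mucosal peptide, rose from 0.262 to 1.89 CPM (2.53 ± 0.60, adjusted p = 0.00199), whereas Krt19 ran from 0.32 to 4.12 CPM in Sham and from 0 to 10.2 CPM in WM.

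Adipose, muscle and pancreatic markers check for other tissue in the samples. Of 8 tested adipocyte markers 4 fell, Plin4, Cidec, Pparg and Car3, which hepatocytes with fat also express, and the defining marker Adipoq was at medians of 0.14 and 1.01 CPM (2.21 ± 1.10, adjusted p = 0.124). None of 3 tested muscle markers and none of 2 tested neutrophil markers was called by edgeR. Of 27 pancreatic acinar markers 1 was tested, Cela1, and it was higher in WM, from 8.56 to 119 CPM in Sham (median 11.3) and from 66.7 to 188 CPM in WM (median 115, 2.29 ± 0.56, adjusted p = 0.00238). The highest Sham value is that of replicate 17, and without Sham replicate 17 and WM replicate 25 the log2 fold change was 3.44. The 19 acinar genes that were counted but not tested summed to at most 6.35 CPM in a WM library, so their level did not rise with that of Cela1.

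Zonal markers of the lobule had members of both directions in each zone. Of 22 pericentral markers 10 were higher and 2 lower, Slc1a4 and the ammonium transporter Rhbg, and of 23 periportal markers 8 were higher and 4 lower, Apoa4, G6pc, Sox9 and Cyp17a1; both medians, 0.29 and 0.28, turned to −0.03 and −0.05 when scaled by library totals, with 5 pericentral markers higher and 5 lower and 2 periportal markers higher and 7 lower. Cyp2e1, the ethanol-inducible P450 of the pericentral zone, ranged from 1110 to 2030 CPM in Sham (median 1460) and from 3170 to 5000 CPM in WM (median 4680, 1.61 ± 0.15, adjusted p = 1.73e-08). Glul, glutamine synthetase of the layer next to the central vein, ran from 322 to 1060 CPM in Sham (median 875) and from 496 to 1050 CPM in WM (median 672), and the periportal Cyp2f2 from 322 to 1060 CPM (median 761) and from 332 to 1380 CPM (median 416).

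Some lists had few called members. Of 33 interferon response genes 3 were higher, Igtp, Ifi27 and Psmb8, and 4 lower, Ddx58, Rsad2, Ifi44 and Oasl1 (21.2%; median 0.37). These counts rest on WM replicate 13, which held the highest WM value of Igtp (599 CPM, at group medians of 20.6 and 24.8 CPM), Psmb8 (150.0 CPM), Rsad2 (52.1 CPM) and Ifi44 (35.8 CPM). Without it 1 was higher and 9 lower, at a median of −0.35, and Igtp was not called by DESeq2 or limma-voom. Of 12 genes of antigen presentation none rose and 1 fell, B2m (−0.75 ± 0.24, adjusted p = 0.0163). Of 19 iron handling genes 1 rose, Id1, a target of bone morphogenetic protein signals, and 2 fell, Cp, ceruloplasmin (−1.16 ± 0.26, adjusted p = 0.00113), and Hfe2, hemojuvelin (−0.64 ± 0.18, adjusted p = 0.00658). Hamp, hepcidin, ranged from 134 to 734 CPM in Sham (median 247) and from 123 to 1440 CPM in WM (median 560.0, 0.97 ± 0.78, adjusted p = 0.359).

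The smallest called changes among genes of at least 100 CPM were picked by the threshold itself. They do not measure the smallest change that 8 against 8 can detect. Serpinc1, antithrombin, ranged from 1190 to 1500 CPM in Sham (median 1330) and from 1440 to 2350 CPM in WM (median 1620, 0.38 ± 0.14, adjusted p = 0.0375). Pink1, a mitochondrial kinase (0.38 ± 0.13, adjusted p = 0.0236), Hnrnpc, an RNA-binding protein (0.39 ± 0.13, adjusted p = 0.0238), Npc2, a lysosomal cholesterol carrier (0.39 ± 0.14, adjusted p = 0.0343), Sord, sorbitol dehydrogenase (0.40 ± 0.13, adjusted p = 0.0233), and Abcd3, a peroxisomal transporter (−0.39 ± 0.14, adjusted p = 0.0377), changed by about as much. The 5 that rose were not called when scaled by library totals, and all but Sord were not called without Sham replicate 17 and WM replicate 25.

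The bypass group was set beside WM, which was matched to it in weight. RYGB against WM called 196 of 13121 genes (1.49%), 139 higher in RYGB and 57 lower; the comparison shares the WM libraries with that of WM against Sham. For most genes named above RYGB did not differ from WM beyond the threshold: the log2 difference of RYGB minus WM was 0.25 ± 0.39 for Col1a1 (adjusted p = 0.907), 0.46 ± 0.48 for Cidec (adjusted p = 0.829), 0.42 ± 0.31 for Scd1 (adjusted p = 0.706) and −0.29 ± 0.46 for Slco1a1 (adjusted p = 0.908). It was 1.71 ± 0.25 for Cyp3a11 (adjusted p = 0.000131), 1.28 ± 0.25 for Elovl5 (adjusted p = 0.0041), 1.07 ± 0.21 for Cd36 (adjusted p = 0.00542), 2.12 ± 0.36 for Igfbp1 (adjusted p = 0.00103), 1.47 ± 0.23 for Slc10a2 (adjusted p = 0.00042) and 1.88 ± 0.27 for Hmgcs1 (adjusted p = 0.000138). In all 6, lower in WM than in Sham, the level was higher in RYGB than in WM.

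Among the 12 genes with the largest folds between RYGB and WM, taken by the rule given under processing, were genes of iron handling and of the clock. Hamp was lower in RYGB, at a log2 difference of −4.74 ± 0.91 (adjusted p = 0.00332), as was Id1, at −2.29 ± 0.29 (adjusted p = 2.87e-05), while Tfrc, the transferrin receptor, was higher by 3.19 ± 0.42 (adjusted p = 5.19e-05), having medians of 13.4 CPM in Sham and 11.7 CPM in WM. Ciart, Bhlhe41 and Per2 were lower in RYGB than in WM, at −3.22 ± 0.72, −2.29 ± 0.51 and −1.94 ± 0.37 (adjusted p = 0.0143, 0.0127 and 0.0031), and Arntl was higher by 2.89 ± 0.51 (adjusted p = 0.00138). Tff3, higher in WM than in Sham, was higher again in RYGB than in WM (2.77 ± 0.53, adjusted p = 0.00368). Cfd, adipsin, not called between WM and Sham, was higher in RYGB than in WM (2.67 ± 0.64, adjusted p = 0.023), as was Slc39a4, a zinc importer lower in WM than in Sham (2.48 ± 0.48, adjusted p = 0.00389), while Hspa1b was lower (−2.85 ± 0.54, adjusted p = 0.0031). Without 2 RYGB libraries that hold pancreatic transcripts, 200 genes were called, 155 of them among the 196, and DESeq2 called 361, 228 higher and 133 lower.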

How the data were processed

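Liver RNA of 24 libraries (8 Sham, 8 WM, 8 RYGB) was read by 3′ sequencing, and samples were grouped by their titles. The authors deposited 1 table of raw counts per gene. Per the submitters' processing notes they used DESeq2 1.34 and R 4.1.2; the aligner and build used for counting were not given in the sources used here. Gene names, positions and transcript lengths are from GENCODE M21.

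Genes were kept by edgeR's filterByExpr, scaled by TMM and tested with the quasi-likelihood F-test on all 24 libraries without covariates (R 4.3.3, edgeR 4.0.16), with Benjamini-Hochberg adjustment at 0.05; the procedure was tested on simulated counts. Library measures were compared by exact permutation (12870 splits). Library totals limit the precision of low genes. Alternatives were RLE scaling, library totals, other count filters, Sham and WM alone, DESeq2 1.42.0, limma-voom 3.58.1 with quality weights, per-library trends on length and GC content (mgcv 1.9.3), and libraries left out. The fits without Sham replicate 17 and WM replicate 25 and the corresponding pair of RYGB libraries are included.

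Lists and genes were chosen with earlier results of these data known. Named by rule were the 6 genes per direction with the largest fold (mean of at least 5 CPM and at least 7 of 8 WM libraries beyond the Sham median), the 10 per direction with the largest CPM difference, the 3 members per list with the smallest p, a set of metabolic genes, the 6 per direction of RYGB against WM, and the 6 smallest called changes of at least 100 CPM. Some of these are left out of the text, and some items are not reported here.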

Additional observations from a re-analysis of the deposited data

Results flagged for a closer look

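In each group of 8 libraries, the highest or lowest value was set apart by its gap to the nearest other value. This gap, as a share of the group's range, had to exceed Dixon's critical value for 8 libraries. Chance passes that value in about 1 of 20 groups when values are normally distributed. The CPM were not log-transformed here and their distribution was not tested, so this rate may not hold for them. Of 458 groups of values, 70 had such a library, and WM replicate 25 and Sham replicate 14 held 23 and 14 of them.

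WM replicate 25 lay above the rest of its group in Acaa1a (252 CPM, next 128 CPM), Acaa2 (3128 CPM, next 1850 CPM), Ahsg (15173 CPM, next 7510 CPM), Angptl6 (34.7 CPM, next 18.6 CPM), Apom (640.0 CPM, next 318 CPM) and Asgr1 (1664 CPM, next 1230 CPM). It did so as well in Cpt2 (206 CPM, next 136 CPM), Crat (24.6 CPM, next 15.2 CPM), Cyp8b1 (1128 CPM, next 245 CPM), Dgat2 (639 CPM, next 404 CPM), F2 (2452 CPM, next 1570 CPM) and Gcgr (179 CPM, next 120.0 CPM). It did so as well in Gpat4 (476 CPM, next 202 CPM), Gstm3 (33.4 CPM, next 14.6 CPM), Igfals (252 CPM, next 126 CPM), Map1lc3b (278 CPM, next 173 CPM), Plvap (46.1 CPM, next 24.6 CPM) and Slc27a4 (48.4 CPM, next 30.8 CPM). It did so as well in Slc37a4 (192 CPM, next 121 CPM), Slc39a4 (40.3 CPM, next 14.5 CPM) and Stat5a (7.94 CPM, next 4.64 CPM). WM replicate 25 lay below the rest of its group in Rpl15 (3.48 CPM, next 21.3 CPM). Sham replicate 14 lay above the rest of its group in Atf6 (69.9 CPM, next 51.8 CPM), Cidea (140.0 CPM, next 55.1 CPM), Cyp2a5 (235 CPM, next 127 CPM), Dnajb1 (50.7 CPM, next 22.1 CPM), Hsd3b5 (0.742 CPM, next 0.249 CPM) and Hspa1b (33.1 CPM, next 3.02 CPM). It did so as well in Me1 (270.0 CPM, next 143 CPM), Mup11 (298 CPM, next 56 CPM), Nudt7 (195 CPM, next 127 CPM), Per2 (30.2 CPM, next 14.1 CPM), Serpina3k (3857 CPM, next 2080 CPM) and Slco1a1 (17.9 CPM, next 4.75 CPM). It did so as well in Xbp1 (139 CPM, next 101 CPM). Sham replicate 14 lay below the rest of its group in Igf1r (4.65 CPM, next 7.34 CPM). WM replicate 13 lay above the rest of its group in Atf3 (2.93 CPM, next 1.25 CPM), Cdkn2a (12.7 CPM, next 1.95 CPM), Ifi44 (35.8 CPM, next 10.4 CPM), Igtp (599 CPM, next 59.3 CPM), Lcn2 (7.51 CPM, next 3.51 CPM) and Psmb8 (150.0 CPM, next 60.8 CPM). It did so as well in Rsad2 (52.1 CPM, next 18.4 CPM). Sham replicate 2 lay above the rest of its group in Gpnmb (38.3 CPM, next 7.14 CPM), Igfbp3 (23.4 CPM, next 11.7 CPM), Lpl (104 CPM, next 55.1 CPM), Mrps35 (19 CPM, next 13.6 CPM), Sgk1 (20.5 CPM, next 9.72 CPM) and Spp1 (83.2 CPM, next 45.3 CPM). Sham replicate 3 lay above the rest of its group in Rplp2 (203 CPM, next 135 CPM), Socs3 (24.2 CPM, next 14.3 CPM) and Tm7sf2 (18.8 CPM, next 10.9 CPM). WM replicate 20 lay above the rest of its group in Igkc (207 CPM, next 55.6 CPM), Klf2 (33.1 CPM, next 21.8 CPM) and Scd1 (4442 CPM, next 2350 CPM). WM replicate 9 lay above the rest of its group in Atf6 (53.7 CPM, next 31 CPM) and Cyp2a4 (0.766 CPM, next 0.277 CPM). WM replicate 9 lay below the rest of its group in Apoc1 (4601 CPM, next 7650 CPM). Sham replicate 23 lay above the rest of its group in Ciart (4 CPM, next 1.88 CPM) and Per1 (8.75 CPM, next 5.65 CPM). WM replicate 1 lay above the rest of its group in Mup11 (3324 CPM, next 820.0 CPM) and Nudt7 (763 CPM, next 530.0 CPM). WM replicate 7 lay above the rest of its group in Gpnmb (3.68 CPM, next 0.299 CPM) and Nt5e (6.14 CPM, next 2.88 CPM). Sham replicate 17 lay above the rest of its group in Cela1 (119 CPM, next 17.3 CPM). Sham replicate 6 lay above the rest of its group in Bhlhe41 (3.93 CPM, next 1.88 CPM). The root mean square distance from the other libraries of the group was 0.923 on the log2 scale in WM replicate 25, and the next value was 0.677 on the log2 scale. The share of Gm42418 was 26.5% in Sham replicate 6, and the next value was 13.2%. The share of TEC and sense-intronic genes was 0.272% in Sham replicate 17, and the next value was 0.146%. The summed untested pancreatic acinar transcripts was 1387 CPM in Sham replicate 17, and the next value was 3.02 CPM.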

How the results depend on the processing

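No paired analysis was possible because the groups share no replicate numbers. The alternatives were followed for 220 of the tested genes named, but not for some others, among them Per3, Cry1, Cry2, Nr1d1 and Nr1d2. Of the 220, 206 were called, and 139 of these were called in the same direction under every alternative run. The call was lost under at least 1 alternative by 66, most often when scaled by library totals (37) or after the length and GC correction (33). Leaving out 1 library lost 5 to 20 of them. Under library totals 1049 genes were higher and 3637 lower, and 49 of 108 list counts moved by over 1.5 times; this scaling also moves the median of all genes. After the length and GC correction Apoa2 stood at −0.04 and Dcn at 0.06 on the log2 scale, and the cause was not tested. DESeq2 called 361 genes in RYGB against WM, 228 higher and 133 lower, and the cause was not tested. Leaving out 1 library gave 3645 to 4299 called genes for WM against Sham. The alternative without the 2 RYGB libraries was chosen after seeing the data.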
